A study of Mus musculus with 45 samples.

Results

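The genes described here encode secreted factors of stressed cells: Fgf21, Gdf15, Vegfa, Adm, Adm2, Stc2, Angptl4 and Angptl6. They were chosen by gene symbol and are 8 of the 28454 genes in the count table, and each of them had 1 row across the 45 libraries. The libraries are polyadenylated RNA of 11 mouse mammary tumour cell lines, with 3 cultures for each line and condition. MYAZ16.1e, MYAZ12.3i and MYAZ6.6g (spelled MYAZ16_1e and so on in the labels) were derived from mammary tumours of MMTV-cMYC mice, in which the mouse mammary tumour virus promoter drives MYC, and Myc310 from a mammary tumour of another such mouse, which bore several. LM1, LM2 and LM3 were grown from lungs of mice whose mammary fat pad had received Myc310 cells, and LM1-LM (LM1_LM in the labels) from lungs of mice given LM1 cells. LM2-LM and LM3-LM are further lines of the LM-LM kind. A derivative of MYAZ12.3i is labelled as carrying NDI1. All lines therefore share MYC as the driving oncogene, and all were kept in the same medium with 10% serum, insulin, hydrocortisone and EGF. MYAZ16.1e was also measured after 6 h in medium free of cysteine and cystine, as were Myc310, LM1 and LM1-LM. The change of medium came 24 h after plating 250000 cells per well. The 3 cultures of a line are called technical replicates in the series description, and whether they were grown separately is not stated. They are called cultures here, and an SD, SE or p-value over cultures of single lines measures only the spread between such cultures, which may be technical. Where Myc310, LM or LM-LM was tested against the MYAZ lines together, or line means are given, the spread between lines enters too. The SE of a log2 change was derived from the test's F statistic, as described below.

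Lack of an amino acid is sensed in mammalian cells by the kinase GCN2, which phosphorylates the initiation factor eIF2α. General translation then falls while the transcription factor ATF4 is made, and ATF4 with its partners turns on genes of amino acid supply and several genes of secreted proteins. This programme is called the integrated stress response (ISR). FGF21 is a hormone that acts through FGF receptors with the co-receptor β-Klotho, and GDF15 is a distant member of the TGF-β family that acts on the brainstem receptor GFRAL. VEGFA stimulates endothelial cells through KDR, and its gene is a classical target of the hypoxia-inducible factors (HIF) and can also be turned on by ATF4. Adrenomedullin (Adm) and adrenomedullin 2 (Adm2) are vasodilator peptides that share the receptor CALCRL with its RAMP partners. Stanniocalcin-2 (Stc2) is a glycoprotein that blocks the protease PAPPA, ANGPTL4 inhibits lipoprotein lipase and is a target of the fatty acid receptors PPAR, and ANGPTL6 is a related angiopoietin-like protein.

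The depth of the libraries lay between 19517859 and 29019988 counts. A single count corresponded to 0.034 to 0.0516 counts per 1000000 (CPM, scaled with TMM factors over all libraries). The lines held much Krt8 and Krt18, keratins of simple epithelia, at 217 to 1730 and 94 to 550 CPM, but Epcam and Cdh1, which define epithelial cells, stayed at or under 0.802 and 0.284 CPM. Summed markers of other cells ranged from 1.73 to 217 CPM for 10 fibroblast genes, 2.77 to 19.7 CPM for 7 leukocyte genes, 0.0465 to 0.911 CPM for 6 endothelial genes and 0.0504 to 6.72 CPM for 7 alveolar genes. The fibroblast genes with the highest levels were Col3a1 (up to 199 CPM), Pdgfra (58.3) and Pdgfrb (38.5), while Fap was at 0 in all 45 libraries. Among the leukocyte genes Cd68 reached 18.7 CPM, while Ptprc did not exceed 0.233 CPM. With deprivation the fibroblast sum went from 57.6 to 63.6 CPM down to 26.9 to 29.2 CPM in LM1-LM and from 15.1 to 17.7 CPM down to 10.5 to 11.4 CPM in LM1. It went up in Myc310, from 1.73 to 2.16 CPM to 2.68 to 2.81 CPM, and in MYAZ16.1e, from 7.46 to 10.2 CPM to 10.7 to 11.9 CPM. The leukocyte sum went up in LM1 (9.43 to 10.1 CPM to 11.7 to 13.7 CPM) and Myc310 (9.55 to 10.4 CPM to 11.8 to 13.5 CPM), and overlapped in the other two lines. The alveolar sum went down without overlap in MYAZ16.1e (1.8 to 2.58 CPM to 1 to 1.21 CPM), LM1 (0.632 to 1.03 CPM to 0.276 to 0.465 CPM) and LM1-LM (0.387 to 0.653 CPM to 0.0504 to 0.306 CPM). The endothelial sum, near the floor, went down without overlap in LM1-LM (0.258 to 0.373 CPM to 0.047 to 0.153 CPM) and overlapped in the other deprived lines. Pdgfrb fell by 2.54 in LM1 and by 2.81 in LM1-LM on the log2 scale, Col1a1 rose by 1.59 to 2.57 in all 4 lines, and the epithelial sum was higher in the deprived than in the control cultures of each. The part of these changes in the results was not tested.

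The first question was whether the factors respond to the loss of cysteine and cystine in cells of different metastatic potential. Fgf21 and Gdf15 were at or near 0 in control medium and present in every deprived culture. Vegfa, Adm2 and Angptl6 rose in all 4 lines, Stc2 rose in MYAZ16.1e, Myc310 and LM1, and Angptl4 passed the test in MYAZ16.1e and Myc310 with small or overlapping changes. Adm was not induced in any detectable amount. Of the 8 genes, of which 7 were tested, 7 rose in MYAZ16.1e, 7 in Myc310, 6 in LM1 but 5 in LM1-LM by edgeR's quasi-likelihood test at an adjusted p under 0.05. Of all 13400 genes tested, 26.6% rose in MYAZ16.1e and 32.8% in Myc310, against 35.8% in LM1 and 36.5% in LM1-LM. Fgf21 and Gdf15 passed the filter on low counts only through their deprived libraries, so that their calls are no support. Of the other 6 genes, 5 rose in MYAZ16.1e, 5 in Myc310, 4 in LM1 but 3 in LM1-LM. RNA came from whole cultures, so that more expressing cells and more RNA per cell cannot be told apart.

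Fgf21 (ENSMUSG00000030827, chr7:45613886-45615490, minus strand, GRCm38) had no count in the 12 control libraries of these 4 lines. The deprived cultures held 28, 40 and 36 counts in MYAZ16.1e, 110, 101 and 76 in Myc310, 124, 128 and 101 in LM1, and 158, 115 and 153 in LM1-LM. Every deprived culture was thus above every control culture. With the control set at the floor of 3 counts per group, the mRNA was at least 36.3-fold higher in MYAZ16.1e, at least 100-fold in Myc310, at least 113-fold in LM1 and at least 145-fold in LM1-LM. The deprived level was 1.55 ± 0.307 CPM in MYAZ16.1e, but 4.34 ± 0.878 for Myc310, 5.42 ± 0.671 in LM1 and 6.34 ± 0.745 in LM1-LM (SD, n = 3). The cultures of Myc310 overlapped with those of LM1, and LM1 with LM1-LM, whereas all 3 lines lay above MYAZ16.1e without overlap.

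The upstream sequence of Fgf21 is given with those of Gdf15 and Adm2, because these 3 genes stayed at or under 1.07 CPM in every control culture of the 4 lines and were higher in every deprived culture. The sequences are the 250 bases before the annotated start in RefSeq (GRCm38.p6), 5′ to 3′ on the transcript strand. Fgf21 is chr7:45615491-45615740 on the minus strand, Gdf15 is chr8:70632457-70632706 on the minus strand and Adm2 is chr15:89322470-89322719 on the plus strand. Capitals mark matches to an amino acid response element (TGATGNAA, either strand) and to the E-box CACGTG, whose letters hold the hypoxia response core ACGTG on both strands.
Fgf21: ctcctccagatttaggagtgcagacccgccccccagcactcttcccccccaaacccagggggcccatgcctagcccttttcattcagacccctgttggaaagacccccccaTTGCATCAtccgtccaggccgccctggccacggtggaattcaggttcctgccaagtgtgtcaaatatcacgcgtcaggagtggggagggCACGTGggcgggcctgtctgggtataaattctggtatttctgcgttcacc
Gdf15: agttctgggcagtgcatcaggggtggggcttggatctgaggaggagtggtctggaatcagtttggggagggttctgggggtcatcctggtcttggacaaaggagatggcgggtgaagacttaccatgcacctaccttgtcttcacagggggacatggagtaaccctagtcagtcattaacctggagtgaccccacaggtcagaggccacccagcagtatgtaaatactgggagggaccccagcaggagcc
Adm2: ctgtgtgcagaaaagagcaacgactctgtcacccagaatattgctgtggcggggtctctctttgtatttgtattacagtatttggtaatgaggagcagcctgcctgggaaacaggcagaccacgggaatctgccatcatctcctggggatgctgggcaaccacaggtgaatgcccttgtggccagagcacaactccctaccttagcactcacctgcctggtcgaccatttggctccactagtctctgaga
The window of Fgf21 held the amino acid response element once, as its reverse complement, starting 139 bases before the start site. The E-box began 50 bases before the start site. Neither motif was found in the windows shown for Gdf15 and Adm2. Windows of 300 bases around the start were found for 7 of the 8 genes. TGATGNAA was present in 3.97% of 32851 such windows, ACGTG in 19.6% and CACGTG in 7.15%. Among the 9 windows of the 7 genes, CACGTG was also in the second, downstream start of Gdf15 and ACGTG in the second start of Vegfa. These are matches of letters and no measurement of binding.

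Gdf15 (ENSMUSG00000038508, chr8:70629393-70632456, minus strand) had 0, 0 and 1 counts in control MYAZ16.1e and in control LM1-LM, and none in control Myc310 and LM1. Under deprivation there were 54, 65 and 75 counts in MYAZ16.1e, 8, 10 and 8 in Myc310, 16, 22 and 24 in LM1, and 123, 87 and 96 in LM1-LM. The lines therefore fell into a different order than for Fgf21, with Myc310 lowest and LM1-LM highest. The mRNA was at least 9.08-fold higher in Myc310 and at least 19.9-fold higher in LM1. In MYAZ16.1e the ratio of summed counts, corrected for library size, was 203 with a 95% counting interval of 36 to 8060, and in LM1-LM it was 313 with an interval of 55.7 to 12400.

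**Figure D1:**
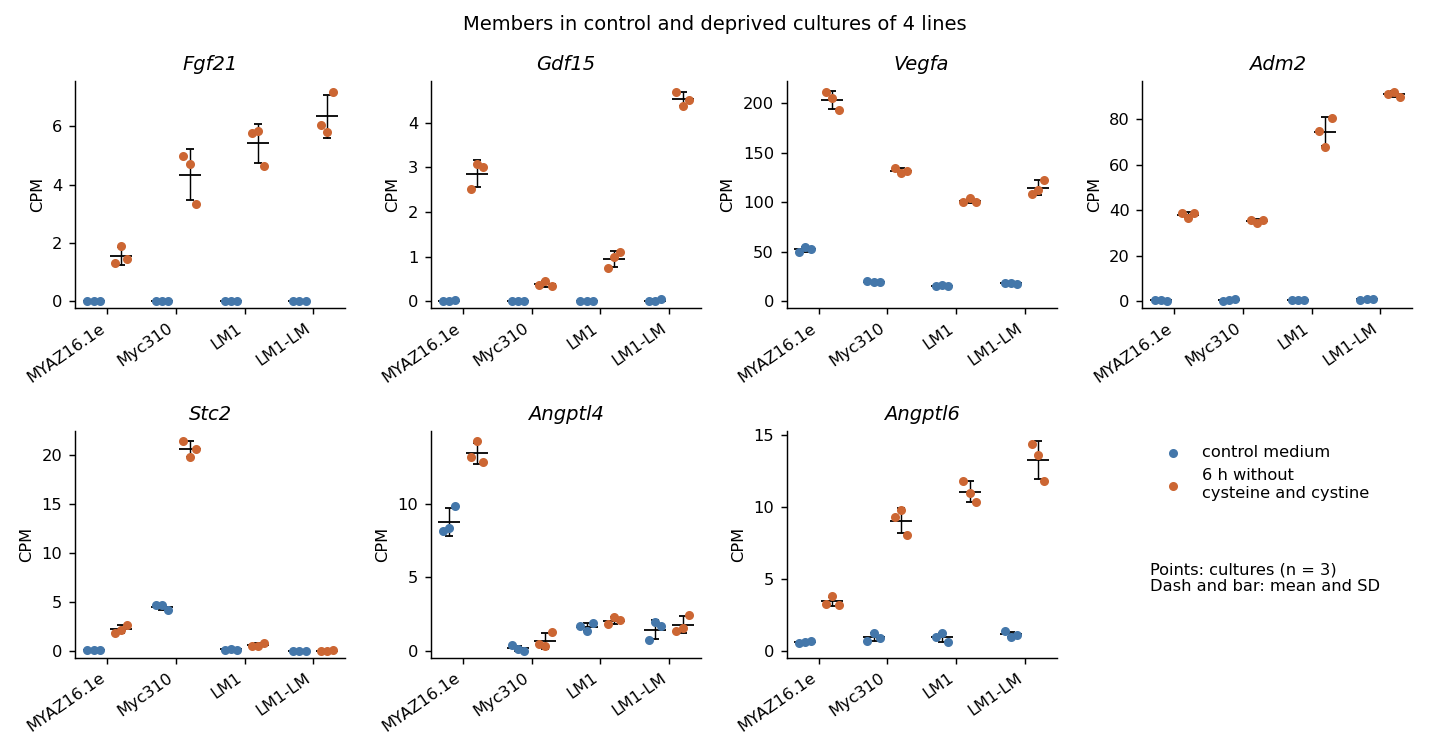
CPM of 7 of the genes in each culture of 4 lines, in control medium (blue) and after 6 h without cysteine and cystine (orange), with the mean and SD of 3 cultures and a linear axis for each gene. Fgf21 reaches 7.19 CPM in deprived LM1-LM with all controls at 0, Vegfa is highest in MYAZ16.1e in both media, and Stc2 reaches 21.4 CPM in deprived Myc310.

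Vegfa (ENSMUSG00000023951, chr17:46016993-46032369, minus strand) was the only one of the 8 with more than 15 CPM in every library. In MYAZ16.1e it went from 50.2, 54.6 and 52.8 CPM to 212, 205 and 194 CPM. In Myc310 it went from 20.1, 19.8 and 19.7 to 134, 130 and 131 CPM, in LM1 from 15.6, 16.7 and 15.6 to 100.2, 104 and 100.4 CPM, and in LM1-LM from 18.5, 18.6 and 17.2 to 108, 113 and 123 CPM. Control and deprived cultures were far apart in each line, and MYAZ16.1e was the highest of the 4 lines in both media. On the log2 scale the increase was 1.95 ± 0.04 (SE) in MYAZ16.1e, but 2.72 ± 0.05 for Myc310, 2.70 ± 0.05 for LM1 and 2.70 ± 0.05 for LM1-LM. The highest adjusted p-value among the 4 lines was 2.73e-26.

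Adm (ENSMUSG00000030790, chr7:110627661-110629820, plus strand) had 1 count in all 12 deprived libraries together and 3 counts in the 12 control libraries of the same lines. No fold is given at this depth, and the gene did not enter the tests. The related Adm2 (ENSMUSG00000054136, chr15:89322720-89324731, plus strand) changed most among those of the 8 with counts in every control culture. Its control cultures had 0.802, 0.516 and 0.374 CPM in MYAZ16.1e, 0.355, 0.704 and 1.07 in Myc310, 0.773, 0.632 and 0.61 in LM1, and 0.818, 0.997 and 0.886 in LM1-LM. After deprivation these became 38.8, 36.7 and 38.7 CPM in MYAZ16.1e, 35.7, 34.3 and 35.8 in Myc310, 74.9, 68.0 and 80.8 in LM1, and 91.1, 92.2 and 89.9 in LM1-LM. MYAZ16.1e and Myc310 thus reached a similar level and LM1 and LM1-LM a higher one. The log2 increases were 6.12 ± 0.14 (SE) in MYAZ16.1e, 5.65 ± 0.13 for Myc310, 6.83 ± 0.12 for LM1 and 6.69 ± 0.11 for LM1-LM, with adjusted p-values of at most 1.65e-25.

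Stc2 (ENSMUSG00000020303, chr11:31357307-31370074, minus strand) differed widely in level between the lines. In Myc310 it rose from 4.65, 4.71 and 4.16 CPM to 21.4, 19.8 and 20.6 CPM, an increase of 2.17 ± 0.15 (SE) on the log2 scale (adjusted p = 1.30e-13). In MYAZ16.1e 2 counts in each control culture became 40, 46 and 66 counts, an increase of 4.63 ± 0.35 (adjusted p = 4.64e-12). In LM1 3, 5 and 3 counts became 12, 11 and 18 counts, an increase of 1.85 ± 0.40 (adjusted p = 0.000171). LM1-LM had no count in control medium and 0, 0 and 2 counts under deprivation, so that no change could be given. The mRNA was therefore present in deprived Myc310 at 20.6 ± 0.792 CPM and at or near the floor in deprived LM1-LM.

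The angiopoietin-like genes differed from each other. Angptl6 (ENSMUSG00000038742, chr9:20873808-20879727, minus strand, with A230050P20Rik on the other strand) rose from 11, 13 and 20 counts to 71, 81 and 80 in MYAZ16.1e. It rose from 18, 29 and 20 to 206, 210 and 184 counts in Myc310, from 19, 28 and 14 to 254, 241 and 225 in LM1, and from 32, 24 and 24 to 377, 270 and 252 in LM1-LM. No control culture reached the level of any deprived culture. The log2 increases were 2.45 ± 0.21 (SE), 3.21 ± 0.18, 3.54 ± 0.18 and 3.55 ± 0.17 in the same order of lines, with a highest adjusted p of 4.25e-11.

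Angptl4 (ENSMUSG00000002289, chr17:33773750-33781830, minus strand) had 8.12, 8.36 and 9.85 CPM in control MYAZ16.1e and 13.2, 14.2 and 12.8 CPM after deprivation. The increase of 0.60 ± 0.21 (SE) on the log2 scale had an adjusted p of 0.0192 in edgeR, and it was 0.134 with DESeq2. It was between 0.062 and 0.0667 when control replicate 1, control replicate 2 or deprived replicate 2 was left out. In Myc310 the counts were 10, 3 and 0 in control and 10, 7 and 29 in deprived cultures, which overlap. The fitted increase of 1.85 ± 0.60 there (adjusted p = 0.00781) fell to 1.03 with an adjusted p of 0.19 when the deprived culture with 29 counts was left out, and reached 3.23 on leaving out another culture. The change of 0.37 ± 0.32 in LM1 did not pass the threshold (adjusted p = 0.313), nor did that of 0.32 ± 0.33 in LM1-LM (adjusted p = 0.402), which ranged from -0.008 without LM1-LM control replicate 1 to 0.596 on leaving out single cultures.

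**Figure D2:**
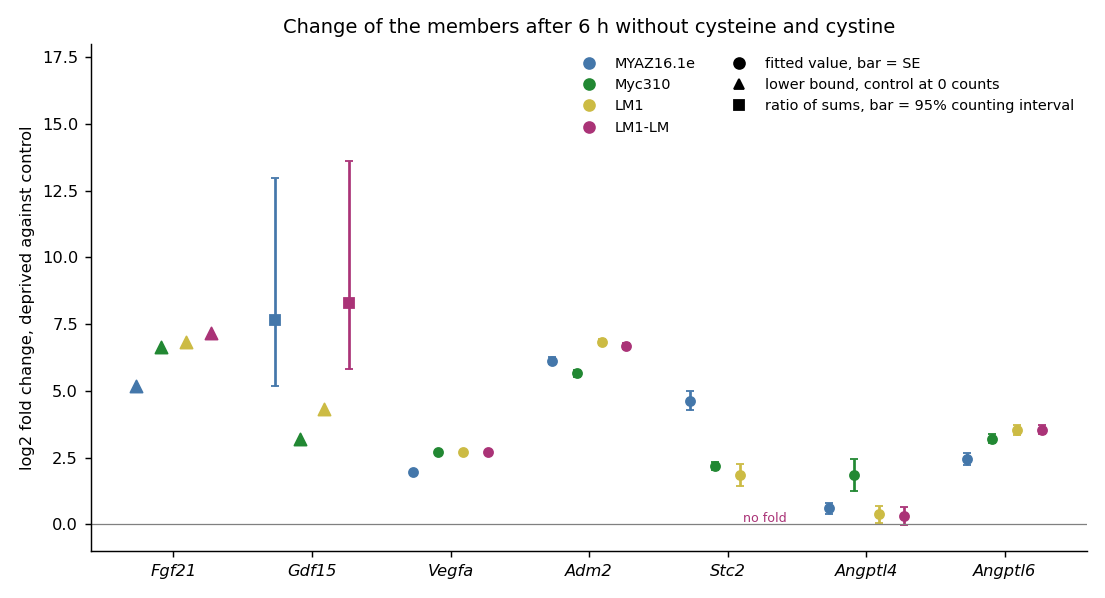
Log2 change of 7 genes after the deprivation of 6 h in each of the 4 lines, where circles are fitted values with their SE, triangles are lower bounds against a control at 0 counts, and squares are ratios of summed counts with a 95% counting interval. Vegfa lies at 1.95 in MYAZ16.1e and between 2.70 and 2.72 in the other 3 lines, Adm2 lies above 5 in all lines, and Stc2 in LM1-LM has no fold.

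Levels of different genes were compared per kilobase of exon. This is only a rough measure, since all annotated exons of a gene were counted and the transcripts expressed are not known. On this scale the deprived LM1-LM cultures held 70.2 CPM of Adm2, 26.8 of Vegfa, 8.40 of Angptl6, 6.67 of Fgf21 and 2.45 of Gdf15. In control LM1-LM the levels were 0.694 for Adm2 and 4.23 for Vegfa. Adm2 was also above Vegfa per kilobase in deprived LM1 (57.5 and 23.7), but Vegfa stayed above Adm2 in deprived Myc310 (30.8 and 27.2) and deprived MYAZ16.1e (47.5 and 29.3). With 3 cultures against 3, an exact permutation test of a single gene cannot give less than 0.1, and Fgf21, Gdf15, Vegfa, Adm2 and Angptl6 had this value in each line (two-sided).

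The second question was whether the size of the response differs between lines, which was tested as the interaction of line and medium. MYAZ16.1e and Myc310 come from different tumours, so that metastatic potential and founder tumour cannot be told apart here. Vegfa rose more in the Myc310 lineage than in MYAZ16.1e. The difference of the log2 responses from MYAZ16.1e was 0.77 ± 0.07 (SE) for Myc310 (adjusted p = 7.18e-11), 0.76 ± 0.07 for LM1 (adjusted p = 9.06e-11) and 0.75 ± 0.07 for LM1-LM (adjusted p = 4.03e-11). The log2 response of Stc2 was smaller than in MYAZ16.1e, by -2.45 ± 0.44 in Myc310 (adjusted p = 4.92e-05) and by -2.78 ± 0.67 in LM1 (adjusted p = 0.00089). In CPM Stc2 rose most in Myc310. Angptl6 rose more in LM1, by 1.09 ± 0.32 (adjusted p = 0.00463), and in LM1-LM, by 1.09 ± 0.31 (adjusted p = 0.00316). For Myc310 its difference of 0.76 ± 0.31 had an adjusted p of 0.054, and 0.0387 with a replicate block. That difference also passed when MYAZ16.1e deprived replicate 2, Myc310 control replicate 2 or Myc310 deprived replicate 3 was left out (adjusted p from 0.0164 to 0.0431). The Adm2 response of Myc310, LM1 and LM1-LM differed from that of MYAZ16.1e by -0.48, 0.70 and 0.56, and none passed the threshold (adjusted p = 0.279, 0.0961 and 0.153). The first passed without Myc310 control replicate 1 (-0.83, adjusted p = 0.0409) and the second without MYAZ16.1e control replicate 3 (0.98, adjusted p = 0.0353).

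In all, 2 of the 8 genes differed from MYAZ16.1e in their response for Myc310, 3 for LM1 and 2 for LM1-LM, while 40.3%, 52.2% and 54.8% of all genes did. Between LM1 and its parent Myc310 only Adm2 passed the test among the 8, with a response larger by 1.18 ± 0.33 in LM1 (adjusted p = 0.00834), and 24.5% of all genes did. The Adm2 difference fell to 0.76 with an adjusted p of 0.148 without the Myc310 control culture that had 23 counts. Between LM1-LM and LM1, 0.769% of all genes and 0 of the 8 passed edgeR's test, and 0 did so with DESeq2 or at an unadjusted p under 0.05. The interaction of Fgf21 and Gdf15 could not be estimated, because their control groups held 3 counts or fewer, and the same held for Stc2 against LM1-LM.

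For this reason the deprived cultures of the lines were also compared directly, a comparison added after the values had been seen. Fgf21 was higher than in MYAZ16.1e by 1.5 ± 0.22 (SE) on the log2 scale in Myc310 (adjusted p = 2.30e-06), by 1.84 ± 0.21 in LM1 (adjusted p = 7.41e-08) and by 2.07 ± 0.21 in LM1-LM (adjusted p = 9.10e-09). LM1 against Myc310 and LM1-LM against LM1 did not pass the threshold for Fgf21 (adjusted p = 0.14 and 0.47). Gdf15 was lower than in MYAZ16.1e in deprived Myc310, by -2.84 ± 0.30 (adjusted p = 4.44e-09), and in deprived LM1, by -1.55 ± 0.27 (adjusted p = 8.49e-06). It was higher in LM1-LM than in MYAZ16.1e by 0.70 ± 0.23 (adjusted p = 0.0076) and than in LM1 by 2.25 ± 0.26 (adjusted p = 3.84e-07). LM1-LM and LM1 thus differed in Gdf15 under deprivation while their Fgf21 levels overlapped.

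Vegfa was lower in the deprived Myc310 lineage than in deprived MYAZ16.1e, by -0.62 ± 0.04 for Myc310, -0.97 ± 0.04 for LM1 and -0.79 ± 0.04 for LM1-LM, with adjusted p-values of at most 4.09e-15. The larger log2 response of the lineage therefore did not bring Vegfa to the level of MYAZ16.1e. Stc2 was higher in deprived Myc310 than in MYAZ16.1e by 3.20 ± 0.16 (adjusted p = 1.50e-16) and lower in deprived LM1 than in Myc310 by -4.99 ± 0.19 (adjusted p = 3.23e-18). Adm2 in deprived LM1 exceeded Myc310 by 1.11 ± 0.06 (adjusted p = 2.83e-15) and LM1-LM exceeded LM1 by 0.29 ± 0.06 (adjusted p = 0.000421). Against MYAZ16.1e, 6 of the 8 genes differed in deprived Myc310, 7 in LM1 and 7 in LM1-LM, beside 72.3%, 76.1% and 76.9% of all genes. Between LM1 and Myc310 6 of the 8 and 51.9% of all genes differed, and between LM1-LM and LM1 4 of the 8 and 16.9% of all genes. Angptl6, among the 6 in LM1, was higher by 0.31 ± 0.13 (adjusted p = 0.0405) and lost its call with DESeq2, with RLE or upper-quartile normalization, or on leaving out either of 2 cultures of each line (adjusted p from 0.0504 to 0.188).

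The third question was how the genes differ between lines of different metastatic potential in control medium. The Myc310 lineage goes back to a single tumour line and the MYAZ lines to other tumours. Metastatic potential and founder tumour therefore cannot be told apart, and sister lines of the lineage are not independent samples. Vegfa separated the MYAZ lines from all lines of the Myc310 lineage. Its line means were 52.5, 46.0 and 50.6 CPM in MYAZ16.1e, MYAZ12.3i and MYAZ6.6g, 19.9 CPM in Myc310, 16, 25.1 and 24.9 CPM in LM1, LM2 and LM3, and 18.1, 38.4 and 24.7 CPM in LM1-LM, LM2-LM and LM3-LM. The lowest MYAZ culture had 44.3 CPM and the highest culture of the lineage, in LM2-LM, 40.0 CPM. Vegfa was lower than in MYAZ by -1.33 ± 0.23 (SE) on the log2 scale in Myc310 (adjusted p = 1.64e-05), by -1.17 ± 0.15 in LM (adjusted p = 7.97e-08) and by -0.90 ± 0.15 in LM-LM (adjusted p = 5.54e-06). With counts summed per line, so that each line was 1 sample, the adjusted p-values were 0.0181 for LM and 0.0459 for LM-LM. For Myc310, then a single sample, the difference was -1.31 and no p-value is given. The exact permutation test of the 3 MYAZ line means (49.7 ± 3.33 CPM, SD) against LM (22 ± 5.21) or LM-LM (27 ± 10.3) gave 0.1, the smallest p it allows (two-sided).

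**Figure D3:**
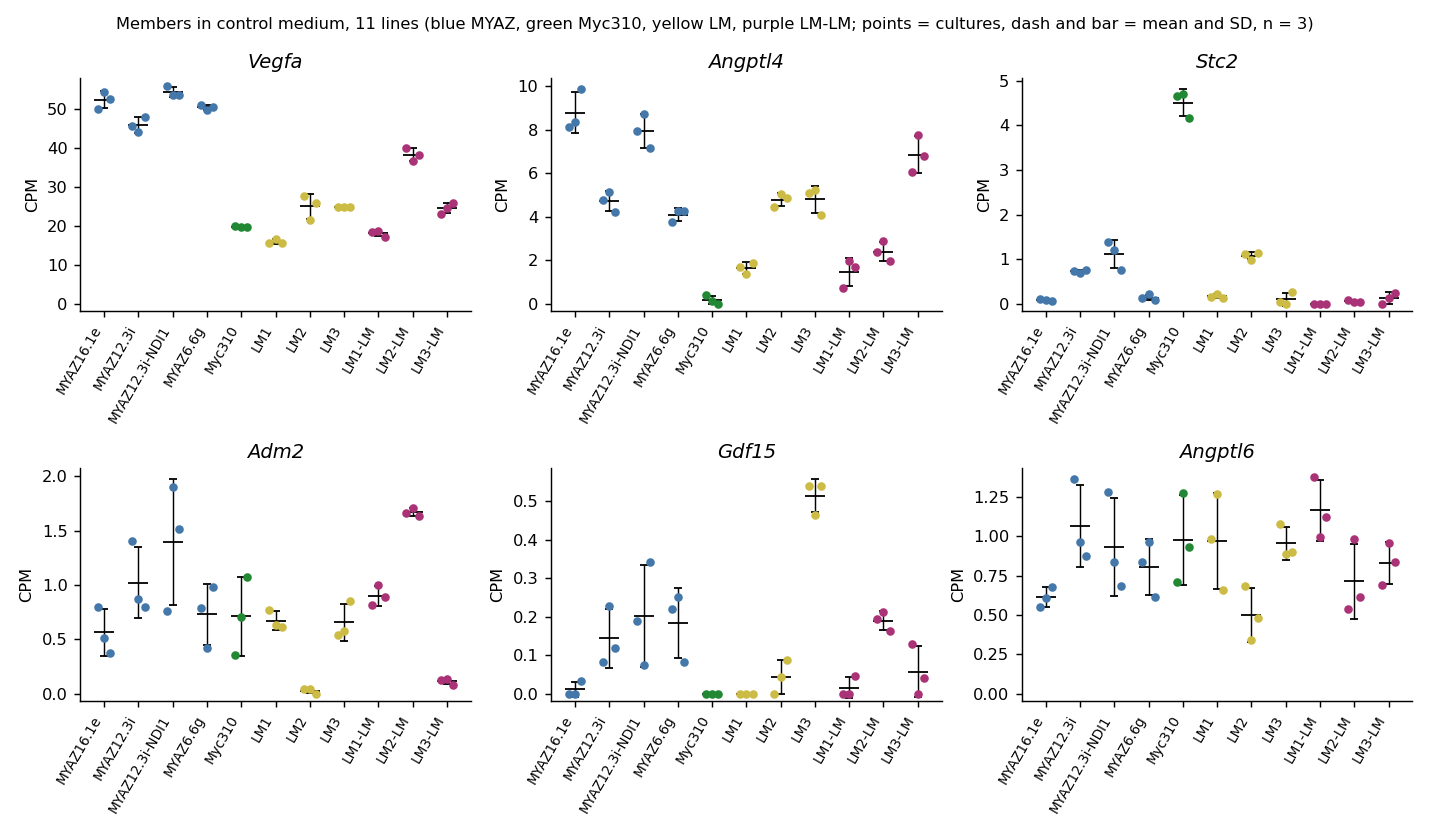
CPM of 6 of the genes in control medium in 11 lines, with the 3 cultures of each line as points and their mean and SD. Vegfa is above 44 CPM in all MYAZ cultures, Angptl4 is lowest in Myc310 (0.175 CPM on average), Stc2 is highest in Myc310 (4.51 CPM), and Gdf15 is highest in LM3 (0.514 CPM).

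Angptl4 was low in Myc310 and higher in the lines derived from it. Myc310 had 0.394, 0.132 and 0 CPM, whereas the MYAZ lines had between 3.77 and 9.85 CPM, and the difference was -4.97 ± 0.80 on the log2 scale (adjusted p = 7.56e-06). With counts summed per line it was -4.95, but Myc310 was then a single sample, so that no p-value is given. Compared with Myc310, Angptl4 was higher by 3.08 ± 0.41 in LM1 (adjusted p = 1.53e-07), by 4.66 ± 0.34 in LM2 (adjusted p = 3.86e-14) and by 4.67 ± 0.34 in LM3 (adjusted p = 2.80e-14). The Myc310 cultures held only 10, 3 and 0 counts. Over the alternatives tried the differences ranged from 2.563 to 4.47, from 4.141 to 6.048 and from 4.148 to 6.055, and kept their calls. Line means were 1.64, 4.78 and 4.80 CPM in LM1, LM2 and LM3, and 1.46, 2.40 and 6.85 CPM in LM1-LM, LM2-LM and LM3-LM. The fibroblast marker sum was also lowest in Myc310 (1.73 to 2.16 CPM) and highest in LM3-LM (216 to 217 CPM), but it was 7.46 to 10.2 CPM in MYAZ16.1e, the line with the most Angptl4. Its part in the Angptl4 levels was not tested. LM and LM-LM did not pass the test against MYAZ (adjusted p = 0.151 and 0.0977), and their line means overlapped with those of MYAZ.

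Stc2 had the opposite pattern in this lineage. Myc310 held 118, 107 and 89 counts, which LM1 (3, 5 and 3 counts), LM2 (26, 23 and 26) and LM3 (1, 0 and 6) did not approach. The differences from Myc310 were -4.66 ± 0.42 in LM1 (adjusted p = 4.66e-11), -2.04 ± 0.32 in LM2 (adjusted p = 1.95e-06) and -5.44 ± 0.45 in LM3 (adjusted p = 3.20e-12). That in LM3, on few counts, ranged from -7.481 to -4.858 over the alternatives tried and kept its call. LM1-LM, with 0 counts, was at least 4.01-fold lower than LM1 (adjusted p = 0.0109), while in a fit of these 6 libraries alone Stc2 did not pass the filter on low counts and was not tested. Myc310 exceeded the MYAZ lines by 3.79 ± 0.74 (adjusted p = 9.58e-05). With counts summed per line the difference was 3.83, where Myc310 was a single sample and no p-value is given. LM-LM was lower than MYAZ by -2.30 ± 0.78 (adjusted p = 0.012, and 0.224 with counts summed per line), and it was -0.85 without MYAZ12.3i (adjusted p = 0.418) and -1.77 without LM1-LM (adjusted p = 0.074).

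The remaining genes were low in control medium. Fgf21 had 11 counts in the 33 control libraries together, at most 2 in a library, and did not enter these tests. Gdf15 had 13, 12 and 12 counts in LM3 and none in Myc310, which is at least 11.9-fold higher in LM3, and 15 counts or fewer over the 3 cultures of any other line. It passed the filter on low counts in control medium only through LM3, so that its call there is no support. Adm had 5, 3 and 6 counts in MYAZ6.6g and 0, 5 and 4 in MYAZ12.3i-NDI1, and 4 counts or fewer over the 3 cultures of any other line. Adm2 had 1, 1 and 0 counts in LM2 against 9, 16 and 23 in Myc310, a ratio of 0.0416 with a 95% counting interval of 0.0049 to 0.159 (adjusted p = 2.40e-06). It was highest in LM2-LM, at 1.67 ± 0.0364 CPM (SD, n = 3). Angptl6 ranged from 0.502 CPM in LM2 to 1.17 CPM in LM1-LM, and most neighbouring lines overlapped. Its difference of -0.92 ± 0.34 between LM2 and Myc310 had an adjusted p of 0.026, which rose to 0.162 without Myc310 replicate 2, to 0.133 without LM2 replicate 2, to 0.0693 without LM2 replicate 3, and to 0.0605 with no filter beyond 1 count in any library.

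Vegfa was also slightly different between Myc310 and its derivatives, by -0.33 ± 0.07 in LM1 (adjusted p = 0.000168), 0.35 ± 0.06 in LM2 (adjusted p = 1.52e-05) and 0.34 ± 0.06 in LM3 (adjusted p = 2.24e-05). LM1 was thus lower and LM2 and LM3 higher than their parent. MYAZ12.3i-NDI1 held more Vegfa than MYAZ12.3i, with 56.0, 53.7 and 53.6 against 45.6, 44.3 and 48.2 CPM and a difference of 0.24 ± 0.05 (adjusted p = 0.0011). Its Angptl4 was higher by 0.75 ± 0.18 (adjusted p = 0.0031), with 7.93, 8.70 and 7.16 against 4.78, 5.14 and 4.22 CPM. Both are single lines, so that the label and the line cannot be told apart.

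Counted over the 8 genes, 3 differed from MYAZ in Myc310, 1 in the LM lines and 2 in the LM-LM lines, beside 50.9%, 60.8% and 62.8% of all genes tested. Here and in the comparisons of single lines 6 of the 8 were tested, against 7 in the deprivation model and 7 with counts summed per line. With counts summed per line 1 gene passed in each of these comparisons (Angptl4, Vegfa and Vegfa), beside 8.92%, 23.6% and 26.4% of all genes. Against Myc310, 3 of the 8 differed in LM1, 5 in LM2 and 4 in LM3 (Gdf15 included), beside 32.5%, 45% and 45.2% of all genes. Between LM1-LM and LM1 1 of the 8 differed (10.6% of all genes), and between MYAZ12.3i-NDI1 and MYAZ12.3i 2 of the 8 (18.5% of all genes).

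The surroundings of the 8 genes were read from lists of related genes. All 12 genes of the ISR list, which holds regulators and target genes, rose in each of the 4 deprived lines. Their medians were 2.81, 2.95, 3.60 and 3.71 on the log2 scale in the order used above, while the median of all genes tested lay between -0.013 and 0. The largest mean increases over the 4 lines were those of Atf3, a stress-induced transcription factor (7.75), and Chac1, which degrades glutathione (6.12), and the smallest were those of Cebpg (1.98) and Cebpb (1.43). These lists were put together with earlier results of these data known.

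The lists of other known regulators of these genes held genes that rose and genes that fell. Of all genes tested, 26.6% rose and 27.1% fell in MYAZ16.1e, 32.8% and 33.9% in Myc310, 35.8% and 35.3% in LM1, and 36.5% and 35.9% in LM1-LM. Of 15 genes in the HIF list, between 6 and 7 rose and between 4 and 7 fell in each line, with medians from -0.09 to 0.05. The list held HIF targets but also Hif1a and Epas1, which encode HIF subunits. Hif1a was among the genes that rose in all 4 lines, and Epas1 among those that fell in 3. Ndrg1 (3.38 on average over the 4 lines) and Ddit4 (2.15) rose, and the oxygen sensors Egln1 (-0.72) and Egln3 (-1.17) fell. Of 7 PPAR targets tested, 3 rose in MYAZ16.1e and 5 in each of the other lines, while 1 fell in LM1 and 2 in LM1-LM. Acot2 (4.81), which cleaves acyl-CoA in mitochondria, and the lipid droplet protein Plin2 (1.60) rose in all 4. Of 10 p53 targets, 8 rose and 1 fell in MYAZ16.1e, 4 rose and 4 fell in Myc310, and 5 rose and 5 fell in LM1 and LM1-LM. Eda2r rose by 5.24 in MYAZ16.1e and by 0.42 to 0.89 in the other lines, Bbc3 rose by 1.68 on average, and Ccng1 (-0.45 on average, but 0.13 in MYAZ16.1e) and Sesn1 (-0.95) were the lowest. Of 10 genes of the unfolded protein response, 4 rose in each line and between 4 and 6 fell. Herpud1 (2.93) and Xbp1 (1.30) rose, and the endoplasmic reticulum proteins Pdia4 (-0.29) and Sdf2l1 (-0.82) fell.

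**Figure D4:**
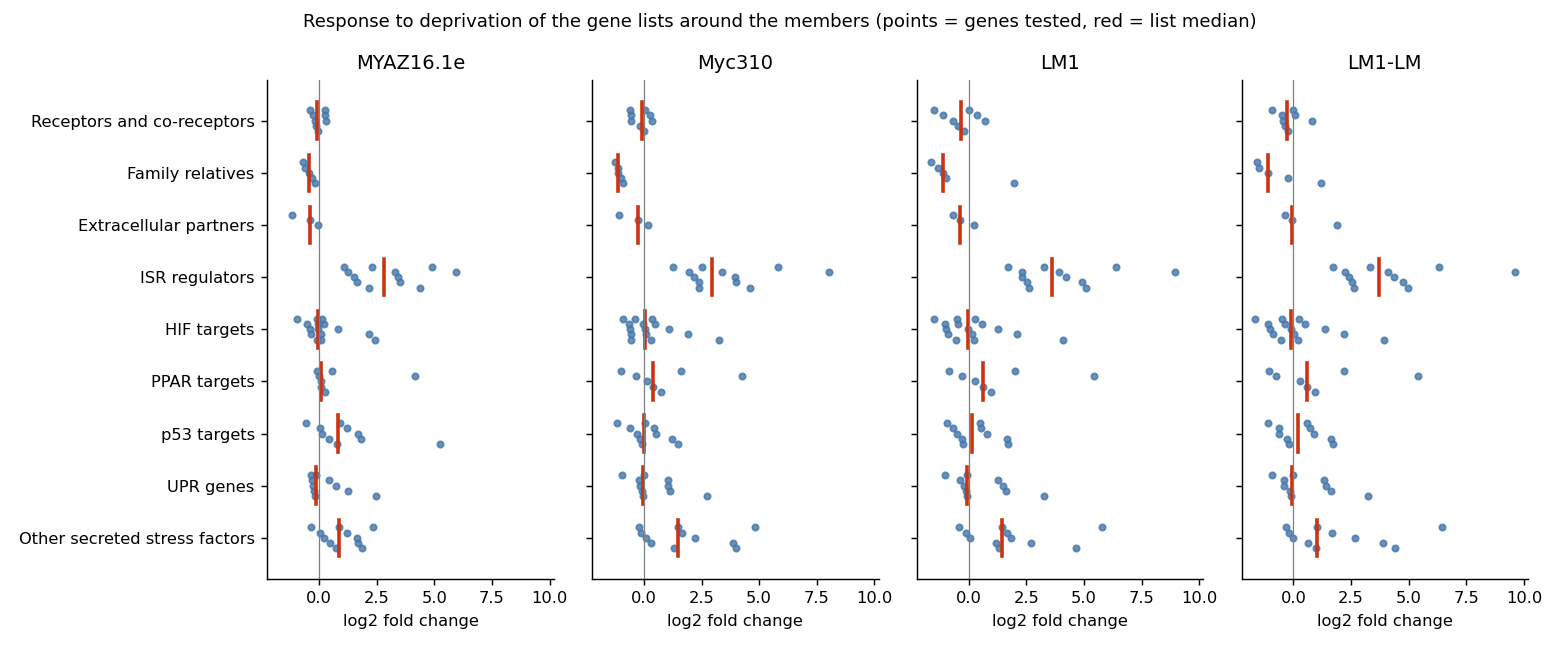
Log2 change of single genes (points) in 9 lists after 6 h without cysteine and cystine in 4 lines, with the list median in red. The genes labelled ISR regulators, which include targets of the ISR, all lie above 1, with medians from 2.81 to 3.71. The medians of the genes labelled HIF targets, which include 2 HIF subunits (Hif1a and Epas1), lie between -0.09 and 0.05.

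Among the partners and relatives of the factors, Fgfr1 alone rose in all 4 lines. Klb, which encodes the FGF21 co-receptor β-Klotho, had 8 counts over all 45 libraries together, Gfral had 3 and Calcrl had 80. These receptor genes were thus at or near the floor and were not tested. Of the 15 receptors and co-receptors listed, 8 were measured well enough, 1 rose in each line (by 0.53 on average, beside 26.6% to 36.5% of all genes that rose), 2 fell in MYAZ16.1e and Myc310, and 4 fell in LM1 and LM1-LM, beside 27.1% to 35.9% of all genes that fell. Of 5 family relatives tested, 4 fell in MYAZ16.1e, Myc310 and LM1 and 3 in LM1-LM, and none rose. Vegfb fell by 1.26 on average, Angptl2 by 1.00 and Vegfd by 0.95, so that Vegfa rose while its paralogues Vegfb and Vegfd fell. Of 3 extracellular partners of ANGPTL4 and STC2, 2 fell in MYAZ16.1e, 1 in Myc310 and in LM1 and none in LM1-LM. Among 11 other secreted stress factors tested, 8 rose in MYAZ16.1e, 7 in Myc310 and in LM1 and 6 in LM1-LM, beside 26.6% to 36.5% of all genes that rose. Interleukin 11 (Il11, 4.52 on average) and amphiregulin (Areg, 3.64) led this list, Lif rose by 1.08, and Manf, a protein of the endoplasmic reticulum, fell by 0.21.

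Genes with the most similar pattern were sought among 14106 genes by the correlation of mean log2 CPM over the 15 groups of line and medium, as a description. For Fgf21 these were Arid5a (r = 0.994), Gbx1 (0.994) and Gpat3 (0.993), for Vegfa Bbs5 (0.982), Capn10 (0.965) and Eif2s2 (0.962), and for Gdf15 Tubb3 (0.914), Tmem125 (0.895) and Camk2n2 (0.895). Among the 8 genes themselves, Fgf21 was most similar to Angptl6 (0.972) and Adm2 (0.93), and least to Adm (-0.361). Over the 11 lines in control medium the value of Fgf21 with Angptl6 was -0.418, where Fgf21 was at or near the floor. The 15 groups share the division into control and deprived medium, and 4 of them are deprived.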

How the data were processed

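RNA sequencing data of 45 libraries (33 in control medium and 12 deprived) were analysed. Per the labels and the methods of the study, polyadenylated RNA was prepared with a directional kit and sequenced paired-end, and the authors aligned reads with STAR to GRCm38 and quantified genes with RSEM. Counts were deposited as whole numbers and had not been normalized. Promoter windows on chromosome 18 were left out of the motif shares. The strand setting and the annotation release are not given in the sources used here, so that overlapping genes on opposite strands cannot be separated with certainty. Depth was 19517859 to 29019988 counts per library, and 1438 of the 28454 genes had no count.

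Counts were tested with edgeR 4.0.16 (quasi-likelihood, TMM, filterByExpr, Benjamini-Hochberg, threshold 0.05) in R 4.3.3 with limma 3.58.1. One model held the 24 libraries of the deprivation experiment (13400 genes), one the 30 control libraries of 10 lines (13795 genes) and one all 33 control libraries (13899 genes). Counts summed per line were tested over 16017 genes. All p-values of edgeR and DESeq2 1.42.0 given as adjusted are from these models across all genes. The SE of a log2 change is its absolute value divided by the square root of the test's F statistic, and is no direct estimate. For Adm2 it was 0.135 in MYAZ16.1e and 0.132 in Myc310, but 0.333 for the difference of these responses. Where a change is large and a group has few counts, this SE can be smaller than the counting error. CPM used TMM factors over 45 libraries, with a prior count of 2 for log2 values. A group at 0 was set to a floor of 3 counts over the group, and groups with 1 to 3 counts are given as ratios with exact 95% counting intervals, which cover counting error only. Alternatives were DESeq2, other normalizations and filters, single cultures or lines left out, and a replicate block. Same-numbered cultures did not deviate together (correlations of -0.0533 to 0.0452), so that the numbers do not pair samples. The scripts were tested on simulated data.

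Gene positions are from GENCODE vM21 and sequences from RefSeq, both on GRCm38. The 8 genes and the lists were chosen with earlier results of these data known. Besides the 8 genes, the text names the 3 genes most correlated with Fgf21, Gdf15 and Vegfa, and per list the 2 largest and 2 smallest mean changes among genes past the threshold in all 4 lines. Genes of the marker lists are named by their levels or changes, outside this rule, as are the HIF subunits and the receptor genes with few counts. A gene of another list was left out and is not reported here.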

Additional observations from a re-analysis of the deposited data

Results flagged for a closer look

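In all, 8 responses to cysteine and cystine loss differed between lines in the test of the interaction of line and medium. Compared with MYAZ16.1e, the log2 response of Vegfa was larger by 0.769 for Myc310, by 0.757 for LM1 and by 0.751 for LM1-LM. All 3 deprived cultures were above all 3 control cultures in each of the 4 lines. The Stc2 response was smaller than in MYAZ16.1e, by -2.453 in Myc310 and -2.778 in LM1, where the MYAZ16.1e control rested on 2 counts in each culture. The Angptl6 response was larger by 1.086 in LM1 and 1.094 in LM1-LM. The Adm2 response was larger by 1.176 in LM1 than in Myc310.

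Among the 9 LM control libraries, LM2 replicate 1 had the highest Fgf21 level, 0.0856 CPM, far from the others relative to their range, on 2 counts, where the others held 0 or 1. The criterion sets apart about 1 in 20 groups by chance for continuous values, a rate not measured here and not meant for counts this low, and 21 groups of 9 libraries were examined.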

How the results depend on the processing

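Over the alternatives tried, Vegfa kept its direction and call in every deprived line, with log2 increases of 1.911 to 1.972 in MYAZ16.1e, 2.684 to 2.729 in Myc310, 2.625 to 2.73 in LM1 and 2.614 to 2.733 in LM1-LM. The Angptl4 increase in MYAZ16.1e lost its call with DESeq2 (0.602, adjusted p = 0.134) and ranged from 0.541 to 0.693 on leaving out single cultures. That in Myc310 ranged from 1.029 to 3.23 and lost its call without Myc310 deprived replicate 3, and that in LM1-LM ranged from -0.008 to 0.596 and turned sign without LM1-LM control replicate 1. Requiring at least 10 counts in every library removed most of the 8 genes from the tests. It left 2 genes past the threshold in each of the 4 deprivation comparisons, beside 6812 (MYAZ16.1e) to 8728 (LM1-LM) of the 10704 genes tested. It left 1 for the response of Myc310 against MYAZ16.1e and 0 for that of LM1 against Myc310, beside 5340 and 3249 of the 10704. It left 2 for each comparison of deprived levels, beside 6116 to 8709 of the 10704, except LM1-LM against LM1, with 1 beside 2069. In control medium it left 1 for Myc310 and for LM-LM against MYAZ, 1 for LM1, LM2 and LM3 against Myc310 and for MYAZ12.3i-NDI1, and 0 for LM1-LM against LM1. With no filter beyond 1 count, 2 genes differed in response between LM1 and Myc310, beside 3164 of 24667 genes tested. On leaving out single cultures the number differing in response was 2 to 4 for Myc310 against MYAZ16.1e and 0 to 2 for LM1 against Myc310. Counts summed per line left 1 gene for LM-LM against MYAZ, beside 26.4% of all genes. Leaving out single lines gave 1 to 2 genes for LM and 1 to 3 for LM-LM against MYAZ. Counts with single cultures or lines left out, and other counts in control medium here, are given without the share of all genes. They describe the settings only. With only the 6 control libraries of LM1-LM and LM1, 4 of the 8 were tested and 0 passed edgeR's test, with 1 at an unadjusted p under 0.05, since Stc2, the 1 gene that edgeR and DESeq2 called on all 33 control libraries, did not pass the filter. Other than through the filter, the causes were not tested. A replicate block changed 1 call, that of the Angptl6 response of Myc310 against MYAZ16.1e (0.77, adjusted p = 0.0387), and no other. Depth limits Fgf21, Gdf15 and Stc2 in control medium and Adm in all libraries.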
